A study of Homo sapiens with 12 samples.

Results

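The 8 genes described here encode the core of the epidermal growth factor (EGF) receptor system as it is expressed in HCT116 cells, a human colon carcinoma cell line. They are the ligands HBEGF, AREG, EREG and TGFA, the receptors EGFR, ERBB2 and ERBB3, and the feedback inhibitor ERRFI1. They were taken by Ensembl identifier from tables of 58051 genes, and all 8 were among the 27915 genes abundant enough to be tested. RNA was sequenced from 12 libraries in 6 groups of 2. Cells received a control small interfering RNA (siControl) or one against PFDN2 (siPFDN2) or PFDN5 (siPFDN5), which encode subunits of the cotranslational chaperone prefoldin. From 24 h after siRNA addition all groups were starved of serum for 48 h, and cells were then taken either before serum or 90 min after serum was given back. All groups therefore went through transfection and starvation, and no unstarved or untransfected cells were included. Each siRNA was a single sequence and the cells were of 1 line. The labels do not say whether the 2 libraries of a group came from separate cultures, so p-values measure only the spread between these libraries, which may be technical.

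EGF family ligands are made as membrane-anchored precursors, are cut free by metalloproteases of the ADAM family, and bind EGFR on the same or neighbouring cells. EGFR then pairs with itself or with ERBB2, which binds no ligand, or ERBB3, whose kinase is weak and whose own ligands are the neuregulins. The paired receptors signal through RAS and MAP kinases and through PI3 kinase and AKT. Several of the ligands, and ERRFI1 (also called MIG6), which binds the kinase domain of the receptors and blocks it, are transcribed soon after growth factors are given, so that the pathway feeds both forward and back on itself. Colon carcinoma lines are known for making AREG and EREG.

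AREG and EREG are neighbours on chromosome 4 and both rose with serum on average, as given below, so their promoters are shown. The sequences run from 250 bases before to 50 bases after the transcription start (RefSeq, GRCh38.p14, plus strand, chr4:74444886-74445185 for AREG and chr4:74364895-74365194 for EREG). Capitals mark the cyclic AMP response element TGACGTCA or its core TGACG, and the TATA box TATAAA.
AREG: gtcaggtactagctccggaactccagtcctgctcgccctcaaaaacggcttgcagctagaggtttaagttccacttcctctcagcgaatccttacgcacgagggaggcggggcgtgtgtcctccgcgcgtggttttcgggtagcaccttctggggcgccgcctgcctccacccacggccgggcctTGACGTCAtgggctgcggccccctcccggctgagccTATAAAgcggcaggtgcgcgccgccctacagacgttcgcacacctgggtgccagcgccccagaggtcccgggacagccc
EREG: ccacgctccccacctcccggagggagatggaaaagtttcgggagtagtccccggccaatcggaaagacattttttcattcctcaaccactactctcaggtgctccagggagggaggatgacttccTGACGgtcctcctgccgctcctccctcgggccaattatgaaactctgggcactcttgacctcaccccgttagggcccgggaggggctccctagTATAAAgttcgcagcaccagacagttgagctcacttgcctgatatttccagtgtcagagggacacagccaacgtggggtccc

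In AREG the response element began at position -65 from the start and the TATA box at -29. In EREG the core TGACG began at -125 and the TATA box at -32. Searched on both strands, TGACGTCA was present in 1.85% of 35116 promoter windows of this length, TGACG (which it contains) in 24.55% and TATAAA in 11.5%. Windows were found for 7 of the 8 genes, with 2 each for TGFA and EGFR. TGACG was also found in the second TGFA window, at -154, and TATAAA in the second EGFR window, at -146 and -36. The GC box GGGCGG, present in 44.95% of windows, was found in those of HBEGF (5 matches), AREG, TGFA, EGFR and ERRFI1. The AP-1 site TGACTCA (4.95% of windows) was found only in the second EGFR window, which lies inside the gene, and the CArG box (1.29%) in none of these. These matches are descriptions of the letters in the windows and say nothing on binding.

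Gene-body counts added up to between 59784425 and 136504590 per library, and precision is limited mainly by the 2 libraries per group. The tables carry an epithelial profile. The summed level of 7 epithelial markers was 2030 to 3292 CPM (counts scaled to a common library total), that of 5 leukocyte markers 0.267 to 0.846 CPM, that of 6 fibroblast markers 4.20 to 16.2 CPM and that of 4 endothelial markers 1.42 to 2.53 CPM. All leukocyte markers stayed under 1 CPM in every library, as did the fibroblast markers other than COL1A1 and the endothelial markers other than VWF. PFDN2 in siPFDN2 and siControl measured 7.55 and 8.49 against 11.5 and 11.2 CPM before serum and 8.73 and 9.47 against 19.5 and 16.3 CPM after it, with adjusted p-values of 0.442 and 0.772. PFDN5 in starved siPFDN5 cells measured 41.0 and 44.2 CPM against 76.8 and 68.9 CPM with siControl (adjusted p = 0.104). In the group labelled siPFDN5 after serum its level was 67.5 and 68.6 CPM, overlapping siControl after serum at 67.9 and 74.0 CPM. The target thus goes against that label, and "siPFDN5 with serum" stands throughout for the libraries labelled so, in every value and direction drawn from them. PFDN2 read higher with siPFDN5 than with siControl, at 21.8 and 21.1 CPM before serum and 23.1 and 28.7 CPM after it. The adjusted p-values for this were 0.104 and 0.108. Replicate 2 of siPFDN2 before serum also stood apart. Spearman's rho between a gene's deviation in that library and its GC content was 0.815, against -0.463 to 0.124 in the other 11 libraries.

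Per kilobase of exon, the 8 genes fell into an abundant and a less abundant set. In siControl before serum EREG was highest at 117 ± 3.03 exon CPM per kb (SD, n = 2), followed by ERRFI1 at 97.5 ± 15.7 and AREG at 87.6 ± 3.51, which overlapped. TGFA followed at 12.4 ± 0.622, EGFR at 9.89 ± 2.28 and ERBB2 at 9.65 ± 0.208, of which EGFR and ERBB2 overlapped, then ERBB3 at 6.41 ± 0.107. HBEGF was the lowest, at 1.73 ± 0.0281 exon CPM per kb.

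After serum AREG led in every siRNA, at 364 ± 17.5 exon CPM per kb in siControl, 424 ± 10.3 in siPFDN2 and 578 ± 23.2 in the libraries labelled siPFDN5. HBEGF passed ERBB3 in siPFDN2 (5.59 ± 0.167 against 4.83 ± 0.159), overlapped it in siControl (5.88 ± 0.422 against 5.42 ± 0.272) and came after TGFA in the libraries labelled siPFDN5, at 8.43 ± 0.00403. There ERBB2 at 8.10 ± 0.227 and EGFR at 7.82 ± 0.372 overlapped each other and lay below it. HBEGF, the lowest of the 8 in starved cells, remained under the other ligands in every group.

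**Figure D1:**
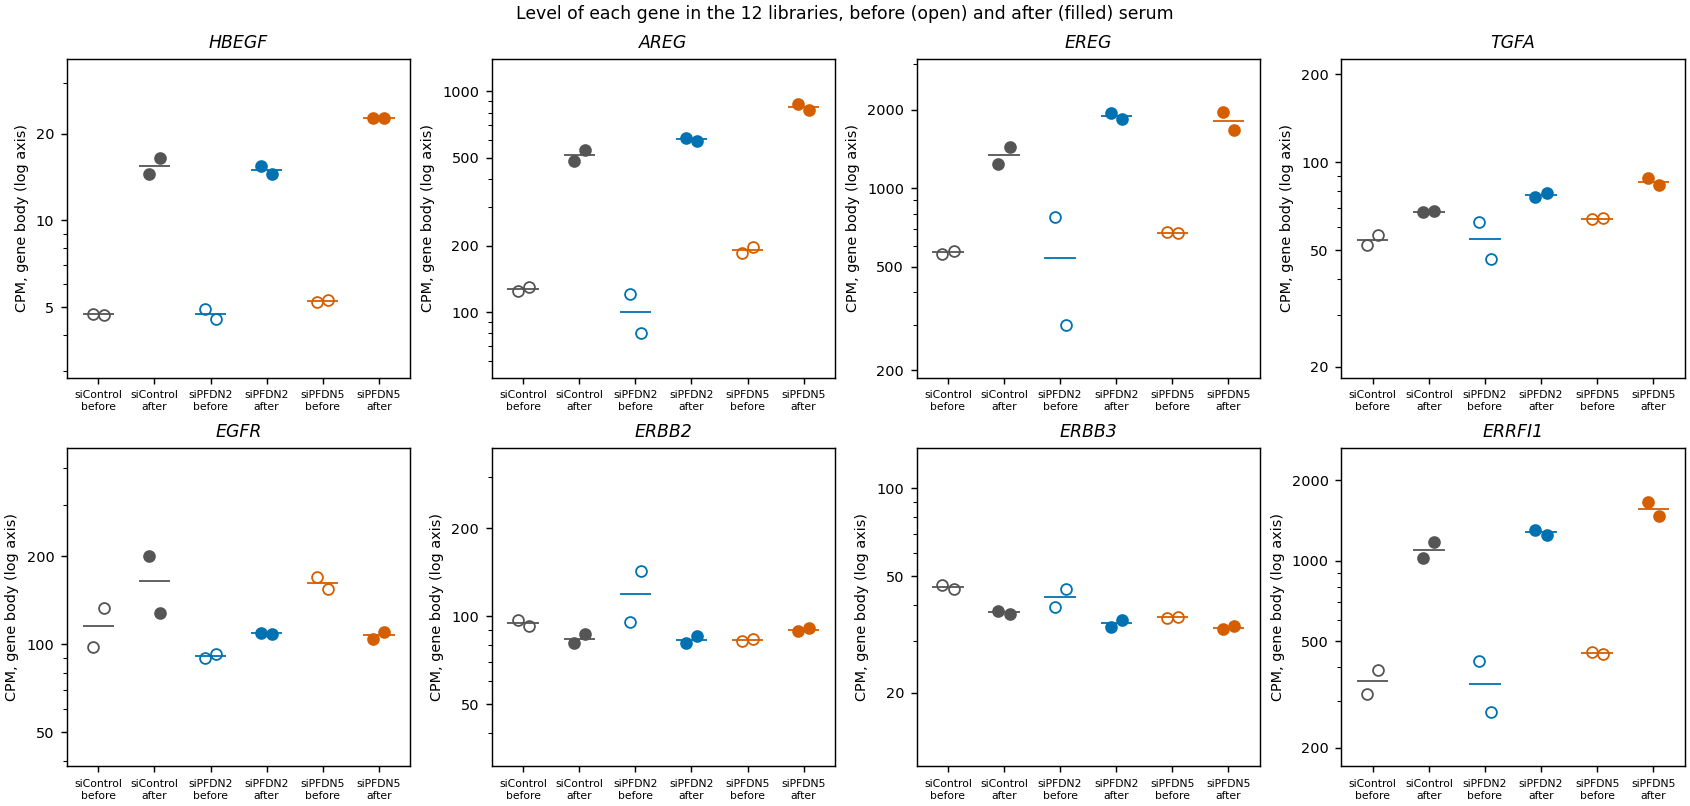
Gene-body CPM on a log axis for each of the 8 genes in the 12 libraries, with open points before and filled points after serum, grey for siControl, blue for siPFDN2 and orange for siPFDN5 as labelled, and a line at each group mean. HBEGF, AREG, EREG and ERRFI1 lie higher after serum in every library. For HBEGF the values are 4.55 to 5.30 CPM before and 14.4 to 22.6 CPM after it. ERBB3 stays within a narrow range, as does ERBB2 apart from 143 CPM in siPFDN2 before serum replicate 2.

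The first question was how starved cells changed these genes when serum returned. The ligands HBEGF, AREG and EREG and the inhibitor ERRFI1 rose 2.82-fold to 4.76-fold on average over the siRNAs, TGFA rose 1.33-fold, and the receptors did not pass the test in gene-body counts. Of the 8 genes, 3 were called in siControl, 4 in siPFDN2 and 4 in siPFDN5 (adjusted p under 0.05), all higher after serum, where 2.87%, 3.26% and 12.2% of all tested genes were called. In the response averaged over the siRNAs 5 of 8 were called, all higher, against 14.9% of tested genes. The median log2 fold change of the 8 genes was 0.88 in siControl, 1.08 in siPFDN2, 0.92 in siPFDN5 and 0.95 on average, where that of all tested genes was 0.01, -0.02, -0.03 and -0.03. Before and after serum did not overlap for 7, 8 and 8 of the 8 genes, and for 45.7%, 54.0% and 75.7% of all tested genes. In bulk RNA a change in the share of cells that hold a transcript and a change in its amount per cell cannot be told apart.

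AREG encodes amphiregulin, a ligand of EGFR. AREG in siControl measured 124 and 130.3 CPM when starved and 484 and 540.0 CPM with serum. With siPFDN2, AREG measured 120.5 and 80.7 CPM when starved and 617 and 593 CPM with serum. With siPFDN5, AREG measured 184 and 197 CPM when starved and 873 and 819.7 CPM with serum, as labelled. Every library after serum lay above every library before it, and both siPFDN5 groups lay above the other siRNAs at the same time point. The siControl response was a log2 fold change of 2.01 (SE 0.18, adjusted p = 0.000101). That of siPFDN2 was 2.59 (SE 0.19, adjusted p = 1.85e-05) and that of siPFDN5 2.15 (SE 0.18, adjusted p = 6.55e-05). AREG had the largest averaged response of the 8 genes, 2.25 (SE 0.11), or 4.76-fold.

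HBEGF encodes heparin-binding EGF-like growth factor, which binds EGFR and ERBB4. HBEGF in siControl measured 4.74 and 4.70 CPM when starved and 14.5 and 16.5 CPM with serum. With siPFDN2, HBEGF measured 4.94 and 4.55 CPM when starved and 15.4 and 14.4 CPM with serum. With siPFDN5, HBEGF measured 5.22 and 5.30 CPM when starved and 22.6 and 22.6 CPM with serum, as labelled. The 6 libraries before serum lay close together, those of siControl and siPFDN2 after serum overlapped, and those labelled siPFDN5 after serum lay above all others. Its log2 fold change reached 1.71 with siControl (SE 0.14, adjusted p = 5.34e-05) and 1.65 with siPFDN2 (SE 0.14, adjusted p = 7.93e-05). With siPFDN5 it reached 2.10 (SE 0.15, adjusted p = 1.17e-05), and the average was 1.82 (SE 0.08).

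EREG encodes epiregulin, which activates EGFR and ERBB4. EREG in siControl measured 558 and 577 CPM when starved and 1243 and 1439 CPM with serum. With siPFDN2, EREG measured 778 and 299.97 CPM when starved and 1946 and 1841 CPM with serum. With siPFDN5, EREG measured 677 and 675 CPM when starved and 1958 and 1679 CPM with serum, as labelled. The siPFDN2 libraries before serum held both the highest and the lowest value of the starved cells, and no library before serum reached one after it. EREG was called in siPFDN2 (log2 fold change 1.81, SE 0.33, adjusted p = 0.0129) and in siPFDN5 (1.43, SE 0.32, adjusted p = 0.0222). Under the alternatives given in the closing section the siPFDN2 call was lost 3 times and the siPFDN5 call 5 times. In siControl the change of 1.24 (SE 0.32) had an adjusted p of 0.0749. Without siPFDN2 before serum replicate 2 the value in siControl was also 1.24 and was called, as were 6 of the 8 genes there, against 9.95% of tested genes. The value in siPFDN2 was 1.28 without that library and 2.67 without replicate 1 of the same group.

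TGFA encodes transforming growth factor alpha, another EGFR ligand. TGFA in siControl measured 52.1 and 56.6 CPM when starved and 67.5 and 68.2 CPM with serum. With siPFDN2, TGFA measured 62.7 and 46.8 CPM when starved and 76.3 and 78.5 CPM with serum. With siPFDN5, TGFA measured 63.8 and 64.6 CPM when starved and 88.2 and 83.5 CPM with serum, as labelled. Libraries after serum lay above those before it in each siRNA. The averaged change of 0.41 (SE 0.09, adjusted p = 0.0111) was called, and those of single siRNAs, 0.32, 0.50 and 0.42, were not (adjusted p = 0.437, 0.0907 and 0.0923). The averaged call was lost without siControl before serum replicate 1 (0.40, adjusted p = 0.0504). In siPFDN5 without siPFDN2 before serum replicate 2 TGFA was called at 0.43, against 36.3% of tested genes.

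ERRFI1, the intracellular inhibitor of the receptors, rose with the ligands. ERRFI1 in siControl measured 319 and 389.6 CPM when starved and 1020.0 and 1174 CPM with serum. With siPFDN2, ERRFI1 measured 421 and 273 CPM when starved and 1304 and 1251 CPM with serum. With siPFDN5, ERRFI1 measured 454 and 448 CPM when starved and 1654 and 1475 CPM with serum, as labelled. The groups before and after serum were far apart in each siRNA, and the lowest value was again in siPFDN2 before serum replicate 2. Its log2 fold change reached 1.63 with siControl (SE 0.20, adjusted p = 0.000816) and 1.88 with siPFDN2 (SE 0.20, adjusted p = 0.000355). With siPFDN5 it reached 1.79 (SE 0.20, adjusted p = 0.00049), and the average was 1.77 (SE 0.12).

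**Figure D2:**
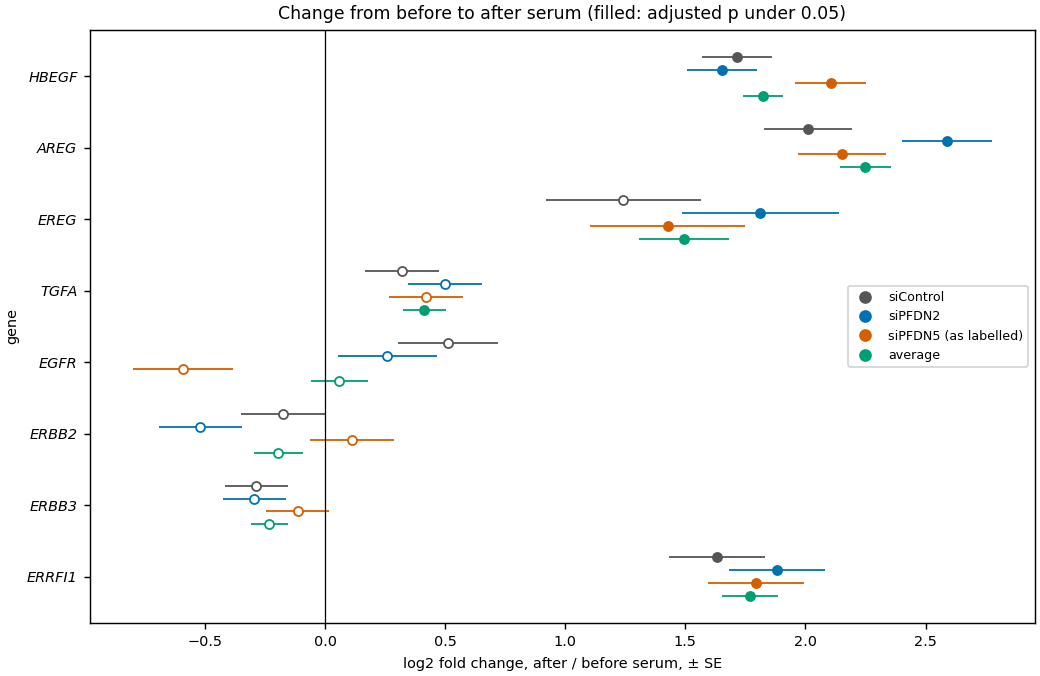
Log2 fold change from before to after serum on the x axis, with its SE, for each gene in siControl, siPFDN2, siPFDN5 as labelled and on average, with filled points where the adjusted p is under 0.05. AREG, HBEGF, EREG and ERRFI1 lie between 1.24 and 2.59, TGFA between 0.32 and 0.50, and EGFR runs from 0.51 in siControl to -0.59 in siPFDN5.

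EGFR, the receptor of all 4 ligands, was called in none of the 3 siRNAs by the test used throughout on gene-body counts of all 12 libraries. EGFR in siControl measured 97.5 and 133 CPM when starved and 200.3 and 128 CPM with serum. With siPFDN2, EGFR measured 89.7 and 92.3 CPM when starved and 109 and 108 CPM with serum. With siPFDN5, EGFR measured 169.7 and 154 CPM when starved and 105 and 110.1 CPM with serum, as labelled. Libraries overlapped in siControl, lay higher after serum in siPFDN2 and lower in siPFDN5. The log2 fold changes were 0.51 (SE 0.21, adjusted p = 0.321), 0.26 (SE 0.21, adjusted p = 0.420) and -0.59 (SE 0.21, adjusted p = 0.0831), and the average was 0.06. The value in siControl was 0.16 without its replicate 1 after serum and 0.30 without its replicate 1 before serum. In siPFDN5 the call depended on the fit, and the value lay between -0.65 and -0.52 with a library left out.

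ERBB2 is the partner receptor that binds no ligand. ERBB2 in siControl measured 96.8 and 92.8 CPM when starved and 80.8 and 86.9 CPM with serum. With siPFDN2, ERBB2 measured 95.7 and 143 CPM when starved and 81.2 and 85.4 CPM with serum. With siPFDN5, ERBB2 measured 82.7 and 83.7 CPM when starved and 88.8 and 90.9 CPM with serum, as labelled. Apart from siPFDN2 before serum replicate 2, all libraries lay between 80.8 and 96.8 CPM. The log2 fold changes of -0.18, -0.52 and 0.11 had adjusted p-values of 0.808, 0.107 and 0.705, and that of siPFDN2 was -0.20 without replicate 2 before serum. The gene shares its region with PGAP3, MIEN1 and MIR4728, whose reads cannot be told apart from its own where they overlap.

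ERBB3 is a neuregulin receptor. ERBB3 in siControl measured 46.7 and 45.4 CPM when starved and 38.2 and 37.3 CPM with serum. With siPFDN2, ERBB3 measured 39.4 and 45.4 CPM when starved and 33.5 and 35.6 CPM with serum. With siPFDN5, ERBB3 measured 36.1 and 36.3 CPM when starved and 33.1 and 33.8 CPM with serum, as labelled. Values after serum were below those before it in each siRNA, by a small margin. The log2 fold changes were -0.29, -0.30 and -0.11 (adjusted p = 0.407, 0.171 and 0.589), and the average was -0.23 (SE 0.08, adjusted p = 0.0616). Without siPFDN2 before serum replicate 2 the averaged change of -0.20 was called, with 6 of the 8 genes called in all, against 27.5% of tested genes. ERBB3 shares fragments with the overlapping gene AC034102.2.

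Counts outside exons were then looked at separately, as gene-body counts minus exon counts. They hold unspliced RNA, and a fragment that touches an exon is counted there. The rise of HBEGF, AREG, EREG and ERRFI1 was called in them in each siRNA, and that of TGFA in siControl and on average only. Scaled to the whole library, the intronic part of EREG in siPFDN5 measured 28.4 and 22.8 CPM when starved and 29.2 and 26.7 CPM with serum. That of ERRFI1 there measured 29.4 and 23.4 CPM when starved and 32.0 and 28.5 CPM with serum. On that scale both genes overlapped before and after serum. The intronic part of TGFA measured 8.71 and 6.80 CPM in starved siPFDN5 cells and 3.83 and 3.91 CPM with serum, with an intronic log2 fold change of -0.31 (adjusted p = 0.450). In a fit of intronic counts alone 7 of the 8 genes were called in siControl, 6 in siPFDN2, 6 in siPFDN5 and 7 on average, where 8.63%, 11.8%, 27.8% and 29.3% of tested genes were called. The averaged intronic log2 fold change was 1.88 (SE 0.19) for AREG, 1.30 (SE 0.18) for HBEGF, 1.28 (SE 0.16) for ERRFI1 and 1.16 (SE 0.16) for EREG. These values are relative to the introns of all genes, and the intronic share of the whole library was 22.8% and 25.9% in siPFDN5 before serum, 17.2% and 14.8% in the libraries labelled siPFDN5 after it, and 15.0% to 20.9% in the others.

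Exonic and intronic counts gave different calls for all 3 receptors. For EGFR the part outside exons measured 13.3 and 15.8 CPM when starved and 93.3 and 32.7 CPM with serum in siControl. With siPFDN2 the same part measured 12.2 and 16.3 CPM when starved and 33.4 and 30.3 CPM with serum. With siPFDN5 the same part measured 39.3 and 27.3 CPM when starved and 23.1 and 23.2 CPM with serum. Unspliced EGFR was thus higher after serum in both libraries of siControl and of siPFDN2. In siPFDN5 it was above the other starved cells and lower after serum, as a share of the library. Intronic counts gave a log2 fold change of 1.89 with siControl (SE 0.31, adjusted p = 0.000725) and 1.34 with siPFDN2 (SE 0.30, adjusted p = 0.00909). With siPFDN5 the value was 0.17 (SE 0.30, adjusted p = 0.702). The difference between siPFDN5 and siControl was -1.73 (SE 0.42, adjusted p = 0.0318), in a comparison where 12.5% of tested genes were called. This includes replicate 1 of siControl after serum, at 93.3 CPM against 32.7 CPM in replicate 2. Intronic counts were not fitted without that library.

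The exonic part of EGFR gave other values. In siControl, exonic EGFR measured 84.2 and 117 CPM when starved and 107 and 95.5 CPM with serum. With siPFDN2, exonic EGFR measured 77.5 and 76.0 CPM when starved and 76.0 and 78.0 CPM with serum. With siPFDN5, exonic EGFR measured 130.4 and 126.7 CPM when starved and 81.5 and 86.9 CPM with serum. Only the siPFDN5 groups were apart. The log2 fold change in the fit of exon counts was 0.04 in siControl and -0.01 in siPFDN2 (adjusted p = 0.997 and 0.971), and -0.74 (SE 0.16, adjusted p = 0.0362) in siPFDN5, where 4.22% of tested genes were called. The antisense gene EGFR-AS1 lies within EGFR and held 207 to 640 gene-body counts per library, against 1154 to 7820 intronic counts of EGFR.

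For ERBB3 the part outside exons was small and fell. In siControl 91 and 82 intronic counts were found when starved and 44 and 38 with serum. With siPFDN2 the numbers were 60 and 159 when starved and 19 and 32 with serum. With siPFDN5 they were 62 and 51 when starved and 18 and 16 with serum. Every library after serum lay below every library before it, in counts. The intronic log2 fold change was -1.29 (SE 0.34, adjusted p = 0.0232), -1.38 (SE 0.35, adjusted p = 0.0189) and -1.30 (SE 0.39, adjusted p = 0.0212). The exon counts gave -0.24, -0.29 and -0.22, none of them called. The overlapping gene AC034102.2 held 7254 to 17071 gene-body counts per library, and its part in the ERBB3 counts was not tested.

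For ERBB2 the intronic part measured 14.7 and 14.4 CPM in starved siPFDN5 cells and 18.1 and 17.6 CPM with serum, without overlap. Its intronic log2 fold change there was 0.98 (SE 0.25, adjusted p = 0.00945), and exon counts gave -0.06 (adjusted p = 0.889). In siControl and siPFDN2 the intronic values were -0.20 and 0.14 (adjusted p = 0.714 and 0.743). The difference between siPFDN5 and siControl was 1.18 for ERBB2 (SE 0.34, adjusted p = 0.0392) and -1.44 for TGFA (SE 0.42, adjusted p = 0.0387). On this intronic scale TGFA in siControl measured 21.1 and 25.9 CPM when starved and 70.8 and 31.8 CPM with serum. The TGFA values thus lean on replicate 1 of siControl after serum, and intronic counts were not fitted without it. These intronic values are scaled to all introns, whose share of the library fell between the siPFDN5 groups as given above. Intronic counts of ERBB2 numbered 922 to 1899 per library. The overlapping genes MIEN1 and PGAP3 held 1357 to 2727 and 374 to 1279 gene-body counts. How much of the intronic ERBB2 counts came from them was not tested.

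The remaining shares stood apart mainly in the libraries labelled siPFDN5 after serum. For AREG the siRNAs overlapped before serum, as did siControl and siPFDN2 after it. The intronic share of AREG was 8.07% and 7.34% in siControl before serum, 7.12% and 5.83% after it, and 3.17% and 2.92% in the libraries labelled siPFDN5 after serum. The share of ERRFI1 was 1.93% and 1.94% in those libraries and 3.19% to 7.70% in the other 10. HBEGF, EREG and TGFA also had their lowest shares there. ERBB2 did not, at 20.3% and 19.4% against 11.8% to 19.2% elsewhere. The intronic share of a single gene was not tested by itself, and the whole-library share given above moved with it between the siPFDN5 groups. Replicate 1 of siControl after serum stood apart for EGFR (46.6% against 25.5% in replicate 2) and for TGFA (25.2% against 8.13%), with 1430 intronic TGFA counts against 747. The intronic change of TGFA in siControl was 1.13 with both libraries.

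**Figure D3:**
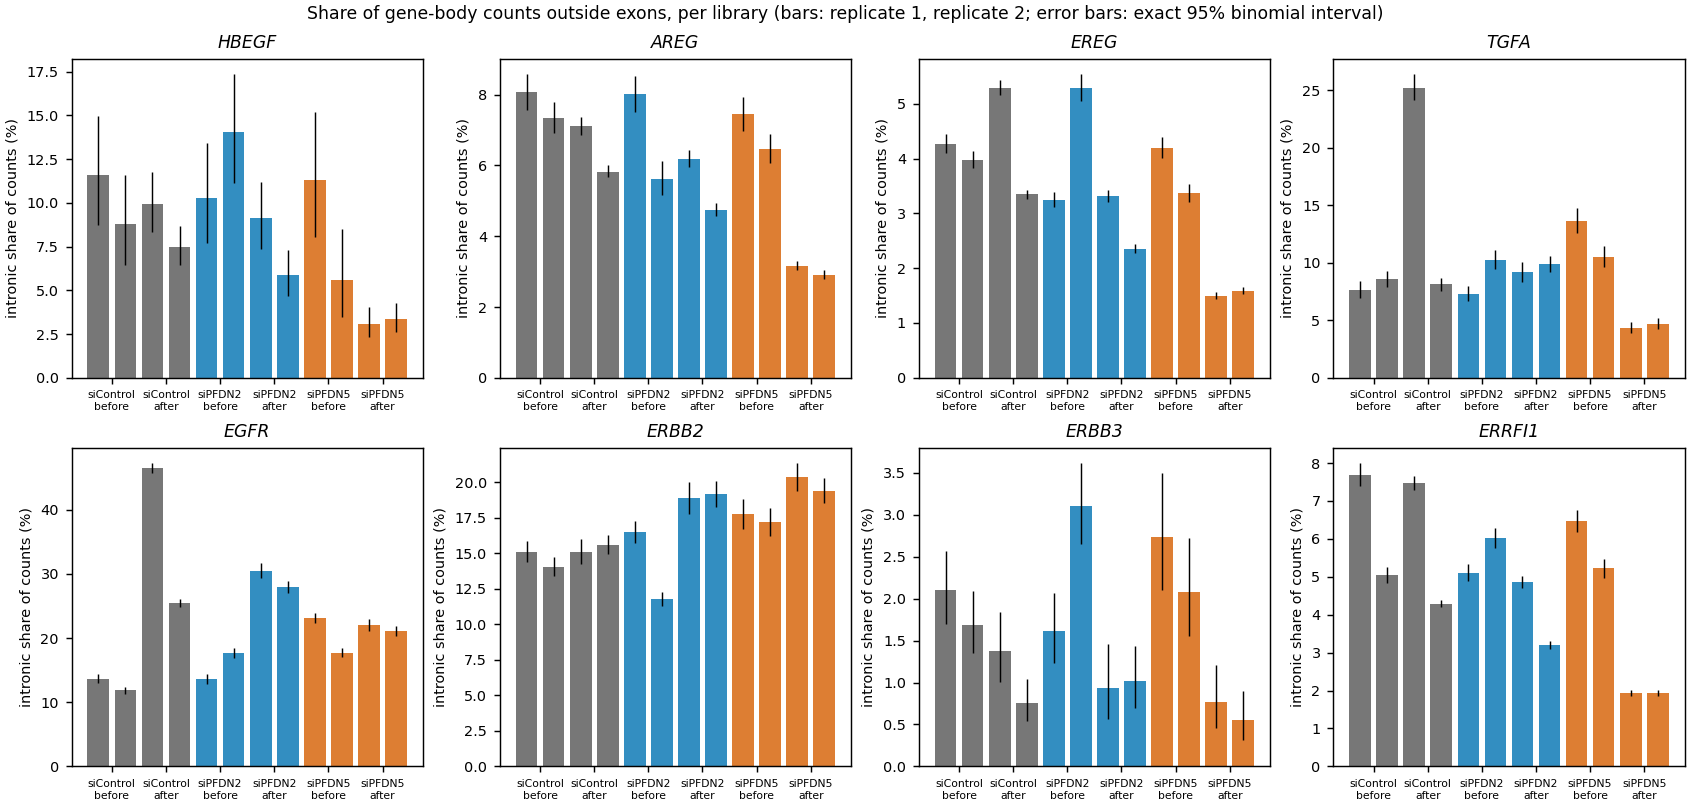
Share of gene-body counts outside exons, in percent, for each gene in the 12 libraries (2 bars per group, error bars are exact Clopper-Pearson 95% intervals, which cover counting error only). EGFR rises from 13.6% and 11.9% to 46.6% and 25.5% in siControl, and AREG, EREG and ERRFI1 are lowest in the libraries labelled siPFDN5 after serum.

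The next question was whether lowering a prefoldin subunit changed these genes in starved cells. In siPFDN2 against siControl 0 of 8 were called (edgeR; 0 with an unadjusted p under 0.05), against 0% of tested genes, with log2 fold changes from -0.34 to 0.33 and a median of -0.05. Libraries did not overlap for 3 of the 8, and for 31.2% of all tested genes. In siPFDN5 0 of 8 were called, against 0.00716% of tested genes. An unadjusted p under 0.05 was found for 3 of the 8 and for 12.3% of all tested genes, and libraries did not overlap for 8 of the 8 and for 63.45% of all. Their median was 0.25 and that of all tested genes 0.01. The 3 genes were AREG at 0.58 (SE 0.18, adjusted p = 0.248), EGFR at 0.49 (SE 0.21, adjusted p = 0.377) and ERBB3 at -0.35 (SE 0.13, adjusted p = 0.331). Without siPFDN2 before serum replicate 2, a library outside this comparison that enters the shared error, AREG (0.58, adjusted p = 0.00437) and ERBB3 (-0.35, adjusted p = 0.0164) were called, against 6.96% of tested genes. The EGFR value was 0.28 without siControl before serum replicate 1. With only the 4 libraries compared, 6 of the 8 genes were called, against 19.5% of tested genes.

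After serum 0 of 8 were called in siPFDN2 against siControl, against 0% of tested genes, and 1 had an unadjusted p under 0.05, as did 6.26% of all tested genes. EGFR had the largest difference, -0.59 (SE 0.21, adjusted p = 0.772), and this was -0.24 without siControl after serum replicate 1. Without siPFDN2 before serum replicate 2 EREG was called (0.50, adjusted p = 0.0477), against 0.568% of tested genes.

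The libraries labelled siPFDN5 after serum were compared with siControl in the same way. Of the 8 genes 0 were called, where 0.00358% of tested genes were called. An unadjusted p under 0.05 was found for 5 of the 8 and for 21.6% of all tested genes, and libraries did not overlap for 8 of the 8 and for 63.4% of all. Their median log2 fold change was 0.39, against -0.04 over all tested genes. AREG was at 0.73 (SE 0.18, adjusted p = 0.0787), HBEGF at 0.55 (SE 0.14, adjusted p = 0.0842), ERRFI1 at 0.51 (SE 0.20, adjusted p = 0.166), TGFA at 0.34 (SE 0.15, adjusted p = 0.227) and EGFR at -0.61 (SE 0.21, adjusted p = 0.132). In intronic counts HBEGF was at -0.24, TGFA at -0.81 and ERRFI1 at -0.41, the other way from these values. None of these was called (adjusted p = 0.621, 0.0960 and 0.333), where 3.80% of tested genes were called. Intronic TGFA also differed between the siControl libraries after serum, as given above. PFDN5 itself stood at the level of siControl in this group, as given above.

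More were called in other fits. Without siPFDN2 before serum replicate 2 AREG (0.73, adjusted p = 0.000328), HBEGF (0.55, adjusted p = 0.00168), ERRFI1 (0.52, adjusted p = 0.00527), TGFA (0.34, adjusted p = 0.00566) and EREG (0.44, adjusted p = 0.00798) were called, against 23.9% of tested genes. With the GC trend of each library removed AREG, HBEGF, ERRFI1 and TGFA were called, against 13.5%. EGFR was called without siControl after serum replicate 2 (-0.85, adjusted p = 0.0283), against 9.15% of tested genes, and was at -0.26 without replicate 1.

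**Figure D4:**
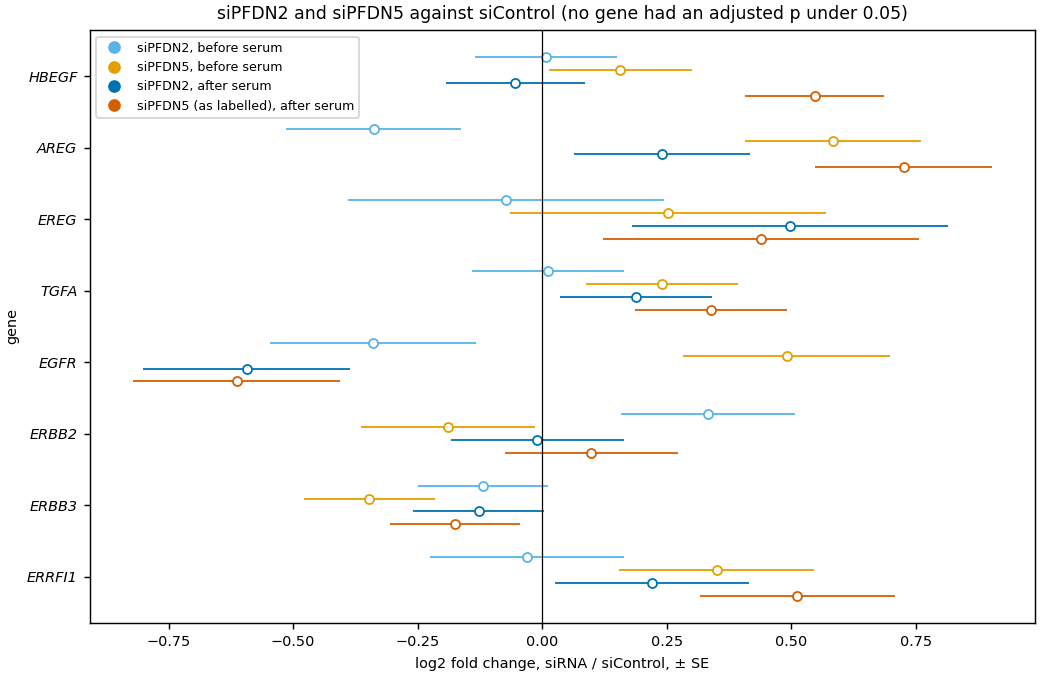
Log2 fold change of siPFDN2 and siPFDN5 against siControl on the x axis, with its SE, for each gene before and after serum. With all 12 libraries no gene has an adjusted p under 0.05, AREG and EGFR in siPFDN5 lie at 0.58 and 0.49 before serum, and at 0.73 and -0.61 in the libraries labelled siPFDN5 after it.

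siPFDN5 and siPFDN2 were compared directly. Before serum 0 of 8 were called, against 0.0788% of tested genes, and 3 of 8 had an unadjusted p under 0.05, near the 28.99% of all tested genes. AREG was higher in siPFDN5 by 0.92 (SE 0.18, adjusted p = 0.0532) and EGFR by 0.83 (SE 0.21, adjusted p = 0.0622), and ERBB2 was at -0.52 (SE 0.17, adjusted p = 0.0921). Without siPFDN2 before serum replicate 2 AREG was called at 0.66, against 3.16% of tested genes, and ERBB2 was at -0.21. After serum 0 of 8 were called, against 0.0179% of tested genes, and 2 had an unadjusted p under 0.05, as did 7.92% of all, with HBEGF at 0.60 (SE 0.14, adjusted p = 0.331) and AREG at 0.48 (SE 0.18, adjusted p = 0.529). Both were called without that library (0.60 and 0.49), against 4.22% of tested genes.

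Whether the response to serum itself differed was tested as a difference of changes. For siPFDN2 minus siControl 0 of 8 were called, against 0% of tested genes, and 1 had an unadjusted p under 0.05, as did 6.595% of all. AREG had the 1 unadjusted value, 0.58 (SE 0.25, adjusted p = 0.582), and was at 0.32 without siPFDN2 before serum replicate 2 and 0.91 without replicate 1. For siPFDN5 minus siControl 0 of 8 were also called, again against 0% of tested genes, and 1 had an unadjusted p under 0.05, as did 20.9% of all. The other 7 genes lay between -0.34 and 0.58 in both comparisons. EGFR was at -1.10 (SE 0.29, adjusted p = 0.0978), with a positive change in siControl and a negative one in siPFDN5. It was called without siPFDN2 before serum replicate 2 (-1.09, adjusted p = 0.0497, 21.8% of tested genes called), with the GC trend removed (-1.005, adjusted p = 0.0434, 8.69% called) and without siControl after serum replicate 2 (-1.31, adjusted p = 0.0134, 10.9% called). It was at -0.74 (adjusted p = 0.385) without siControl after serum replicate 1. With all 12 libraries the serum response of HBEGF, AREG, EREG and ERRFI1 was therefore not shown to differ from siControl in siPFDN2 or siPFDN5. The responses of siPFDN5 and siPFDN2 were not tested against each other.

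The library that stood apart is shown for these genes beside their base composition, whose part in the values was not tested gene by gene. The ratio of replicate 2 to replicate 1 in siPFDN2 before serum was 0.385 for EREG, whose longest transcript has 36.1% GC, 0.649 for ERRFI1 (43.4%), 0.67 for AREG (45.3%) and 0.747 for TGFA (45.9%). It was 1.03 for EGFR (47.5%), 0.922 for HBEGF (50.9%), 1.15 for ERBB3 (52.02%) and 1.498 for ERBB2 (57.5%). EREG, ERRFI1, AREG and TGFA thus read lower in replicate 2, ERBB2 and ERBB3 higher, and EGFR and HBEGF nearly alike. Without it the serum response in siPFDN2 had a log2 fold change of 2.33 for AREG, 1.59 for HBEGF and 1.602 for ERRFI1. With EREG these were the 4 genes called there, against 4% of tested genes. TGFA was then at 0.30 and ERBB3 at -0.19, neither of them called.

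**Figure D5:**
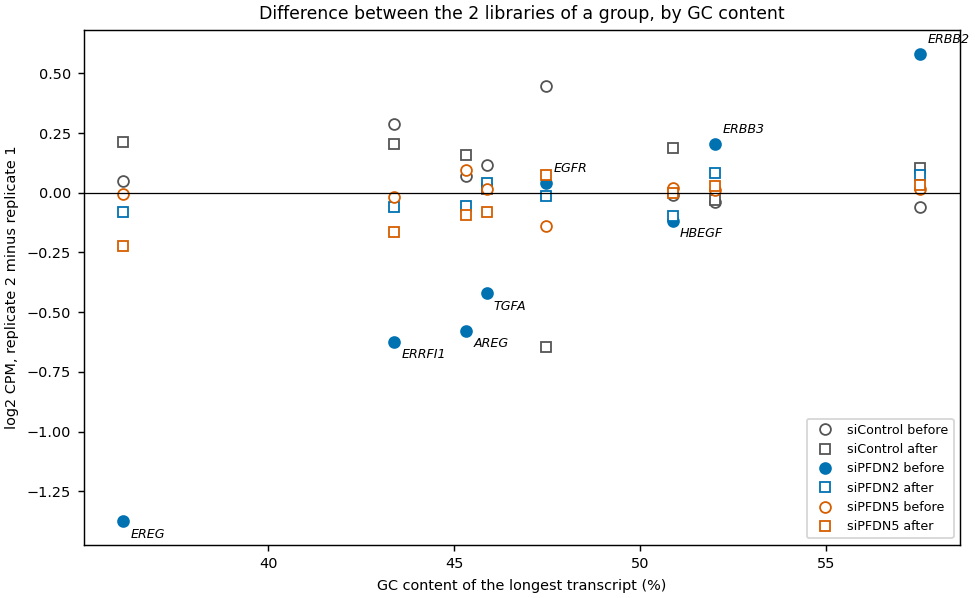
Log2 difference between replicate 2 and replicate 1 of each group on the y axis against the GC content of the gene's longest transcript on the x axis, 1 point per gene and group. The filled points, siPFDN2 before serum, run from a ratio of 0.385 for EREG to 1.498 for ERBB2, and the other groups scatter around 0, except EGFR in siControl.

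The wider pathway was read from 5 lists of 53 genes in all, and all 53 were tested. In the averaged serum response 13 of 53 were called, 4 higher and 9 lower, against 14.9% of tested genes, and their median was -0.08. Among 8 other ligands and receptors NRG1, a ligand of ERBB3, rose (0.76, SE 0.12, adjusted p = 0.00234) and NRG2 fell (-0.60, SE 0.17). NRG1 in siControl measured 2.89 and 3.76 CPM when starved and 6.57 and 5.99 CPM with serum. Of 8 sheddases and their cofactors only RHBDF2, an iRhom that escorts ADAM17, was called, at -0.52 (SE 0.16, adjusted p = 0.0469). In siControl it measured 25.6 and 23.5 CPM when starved and 25.4 and 23.7 CPM with serum, and siPFDN2 before serum replicate 2 read 57.2 CPM against 26.6 CPM in replicate 1. Without that library the averaged value was -0.30. ADAM17, the main protease of these ligands, was at 0.15 (adjusted p = 0.322). Of 9 adaptors, GRB7 (-0.71), GAB1 (-0.40) and PIK3R1 (-0.36) fell on average. In siControl alone NRG2 was at 0.04, GRB7 at -0.62, GAB1 at -0.15 and PIK3R1 at -0.29, none of them called.

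Among 13 negative regulators 3 rose and 4 fell. LRIG3, a membrane protein of a family that restrains the receptors, fell most, from 12.9 and 13.95 to 6.96 and 6.88 CPM in siControl (averaged -0.93, SE 0.10, adjusted p = 9.28e-05). LRIG2 (-0.62), TNK2 (-0.69) and the ubiquitin ligase CBLB (-0.45) also fell on average. In siControl alone TNK2 was at -0.09 and CBLB at -0.05 (adjusted p = 0.972 and 0.982), and CBLB was called in siPFDN5 only, at -1.04. TNK2 read 47.2 CPM in siPFDN2 before serum replicate 2 against 18.4 CPM in replicate 1, and its averaged value was -0.41 without that library. The phosphatase PTPN1 (0.56), SOCS4 (0.58) and RNF41 (0.30), a ubiquitin ligase of ERBB3, rose on average. RNF41 was at 0.03 in siControl (adjusted p = 0.980) and at 0.58 in siPFDN5. SOCS4 was called in no single siRNA, and siPFDN2 before serum replicate 2 read 23.1 CPM of it against 57.1 CPM in replicate 1. In siControl alone 3 of the 53 pathway genes were called, LRIG3, NRG1 and PTPN1, against 2.87% of tested genes. All 13 averaged calls remained without siPFDN2 before serum replicate 2. Of 15 RAS, RAF, MAP kinase, PI3 kinase, AKT and STAT3 genes 0 were called, with changes from -0.15 to 0.47. An unadjusted p under 0.05 was found for 3 of these and for 32.7% of all tested genes. No gene of the lists was called in the comparisons between siRNAs, where 0% to 0.0788% of all tested genes were called. In these an unadjusted p under 0.05 was found for 2 to 26 of the 53 genes and for 6.26% to 28.99% of all.

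EREG and AREG lie 56.4 kb apart on chromosome 4 in GRCh38 (EREG 74365143 to 74388751, AREG 74445134 to 74455009, both on the plus strand). The EGFR ligand gene EPGN ends 49.8 kb before EREG, and BTC, on the other strand, begins 290 kb after AREG. EPGN was low in siControl, with 0.388 and 0.431 CPM when starved and 1.54 and 0.668 CPM with serum, with an averaged change of 0.79 (SE 0.25, adjusted p = 0.0587). By siRNA its change was 1.41 in siControl, 1.37 in siPFDN2 and -0.41 in siPFDN5 (adjusted p = 0.127, 0.0994 and 0.581). BTC stayed between 4.29 and 9.47 CPM (0.19, adjusted p = 0.358). Of the 4 neighbouring ligand genes, AREG and EREG were thus the ones called in the averaged response. In siControl alone only AREG was called, with EREG at 1.24 (adjusted p = 0.0749).

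For HBEGF, AREG, TGFA and ERRFI1 the 3 genes with the most similar profile were sought among 10465 protein-coding genes, by the root mean square difference of centred log2 CPM over the 12 libraries. HBEGF and ERRFI1 shared RCAN1 as nearest (0.114 and 0.134), with NOCT and CHMP1B next for HBEGF and CREM and CHMP1B for ERRFI1. AREG was nearest to PARD6B (0.131), then PMAIP1 and BIRC3. TGFA was nearest to ALG5 (0.0736), HNRNPH2 and RIOK1. These are descriptions over the same libraries, with their shared error.

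Transcript estimates placed most of each gene in 1 isoform. The leading transcript held 98.4% to 99.5% of the estimates of AREG over the libraries, 98.2% to 99.8% of EREG, 97.05% to 99.4% of HBEGF and 87.2% to 97.8% of TGFA. It held 88.6% to 98.0% of ERRFI1 and 92.0% to 99.5% of EGFR. ERBB2 was divided between 1 transcript with 49.6% to 62.5% and another with 17.7% to 36.2%, and the leading transcript of ERBB3 held 63.9% to 92.8%. For TGFA, ERRFI1, EGFR and ERBB3 its lowest group mean was in siPFDN2 before serum, at 92.4%, 92.7%, 95.7% and 76.1%. The means of the other groups were at least 96.4%, 96.2%, 98.7% and 85.7%.

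The 8 genes lie on 7 chromosomes of GRCh38. Besides the pair on chromosome 4, HBEGF (ENSG00000113070) lies on chromosome 5, 140332843 to 140346631, minus strand. TGFA (ENSG00000163235) lies on chromosome 2, 70447280 to 70554193, minus strand, with TGFA-IT1 inside it. EGFR (ENSG00000146648) spans 192608 bases of chromosome 7, 55019021 to 55211628, plus strand. ERBB2 (ENSG00000141736) lies on chromosome 17, 39687914 to 39730426, and ERBB3 (ENSG00000065361) on chromosome 12, 56079857 to 56103505, both plus strand. ERRFI1 (ENSG00000116285) lies on chromosome 1, 8004404 to 8026308, minus strand. AREG is ENSG00000109321 and EREG is ENSG00000124882.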

How the data were processed

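Total RNA of 12 libraries was treated with DNase and depleted of ribosomal RNA, per the labels' protocols. The authors deposited whole-number counts per gene over gene bodies and over exons, made with featureCounts 1.5.2 on Ensembl 87 without a strand option, a fragment over several genes being counted for each, per the file headers. They also deposited estimated counts per transcript, not whole in 54.8% to 61.2% of values. The submitters' processing notes name HISAT2 0.12.2, kallisto 0.43 and GRCh38.p7. Of the columns in each of these files 6 belong to no sample used here and were left out. Gene-body counts were tested with edgeR 4.0.16 (R 4.3.3), with TMM scaling and the quasi-likelihood test over all 12 libraries in 6 groups. Tests were two-sided, p-values were adjusted over 27915 genes by Benjamini-Hochberg, and a gene was called at an adjusted p under 0.05. Intronic counts are gene-body minus exon counts. Log2 CPM used a prior count of 2. Exon totals were 46158398 to 114454288 per library. Alternatives were other counts, scalings and filters, DESeq2 1.42.0, removal of a GC trend, a replicate block and leaving out each library. The method was tested on simulated counts with the same spread set for every gene and library. They held no library that stood apart by GC content, unlike these data. The 8 members and the lists were chosen with earlier results of these data known. All members are named, with the listed pathway genes that were called and others a sentence needs, PFDN2 and PFDN5, and the 3 most similar genes (mean log2 CPM of at least 3) of each called member. The genes most similar to EREG are not reported here.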

Additional observations from a re-analysis of the deposited data

How the results depend on the processing

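The 16 serum responses called for the 8 genes gave 395 values under the alternatives. Of these 383 were called in the same direction, 12 were no longer called and 0 were reversed. The 12 were HBEGF, AREG, EREG and ERRFI1 in siPFDN2 fitted on the groups compared alone, EREG when a library of the groups compared was left out or transcript estimates were summed, and TGFA on average. Genes called in the serum response of siControl numbered 5 with the GC trend removed (6.34% of all tested genes called), 7 with intronic counts (8.63%) and 3 to 6 when a library was left out (0.930% to 9.95%). In siPFDN2 they numbered 0 with only the groups compared (0.143%) and 3 to 7 with a library left out. For siPFDN2 against siControl leaving out a library gave 0 to 4 before and 0 to 1 after serum. For siPFDN5 against siControl before serum the number was 6 with only the groups compared (19.5%) and 0 to 2 with a library left out. After serum it was 2 with DESeq2 (6.96%), 4 with the GC trend removed (13.5%), 1 with intronic counts (3.80%), 3 without a filter (5.42%), 2 with only the groups compared (7.81%), 3 with the replicate block and the GC trend removed (9.46%), and 0 to 5 with a library left out. For siPFDN5 against siPFDN2 before serum it was 3 with DESeq2 (13.9%), 2 with the GC trend removed (6.36%), 1 with intronic counts (16.0%), 3 without a filter (11.5%), 1 with the replicate block and the GC trend removed (4.24%), and 0 to 7 with a library left out. After serum it was 1 with DESeq2 (0.416%), 3 with only the groups compared (22.7%) and 0 to 2 with a library left out. The difference of responses gave 0 to 5 for siPFDN2 with a library left out. For siPFDN5 it gave 1 with DESeq2 (6.32%), 1 with the GC trend removed (8.69%), 3 with intronic counts (12.5%), 1 without a filter (4.98%) and 0 to 1 with a library left out. With a library left out the share of all tested genes called reached 48.6% in the serum response of siPFDN2, 41.8% and 0.593% for siPFDN2 against siControl before and after serum, 6.96% and 23.9% for siPFDN5, 47.9% and 4.22% for siPFDN5 against siPFDN2, and 37.7% and 21.8% for the differences of responses. Each of these high ends was reached without replicate 1 or 2 of siPFDN2 before serum, the remaining library of the group then being assumed to vary like the other groups. The cause was not tested.

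Other values changed sign. EGFR was at -0.0107 in siPFDN2 with exon counts, 0.17 in siPFDN5 with intronic counts, and on average -0.24 with exon counts, -0.0801 with library size only, -0.20 with transcript estimates and -0.0553 to 0.1445 with a library left out. ERBB2 was at 0.14 in siPFDN2 and 0.31 on average with intronic counts, and in siPFDN5 at -0.0597 with exon counts, -0.0399 with library size only and -0.0301 with transcript estimates. TGFA was at -0.31 in siPFDN5 with intronic counts. In siPFDN5 against siControl after serum intronic counts gave HBEGF -0.24, TGFA -0.81 and ERRFI1 -0.41, and against siPFDN2 HBEGF -0.22. None of these intronic differences was called. Scaling by library size only moved the averaged median of all genes to -0.17. The replicate block called 3, 4, 4 and 5 of the 8 genes in the serum responses, against 2.49%, 2.74%, 10.2% and 13.3% of tested genes. Elsewhere it called 0 of the 8, against 0% to 0.0537% of tested genes. These numbers of the 8 genes were the same without it. Correlations of replicate differences between groups ran from -0.32 to 0.59. Whether equal replicate numbers mark libraries handled together was not tested.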
